A study of Mus musculus with 3 samples.

Results

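The p53 pathway genes described here are 10 genes that encode the transcription factor p53, proteins that control it and products of genes that it activates. They were chosen by name and not by a measured value, though earlier results of these data were known. They were matched by symbol to the GENCODE M21 annotation as Trp53, Mdm2, Mdm4, Atm, Ppm1d, Cdkn1a, Ccng1, Sesn1, Gadd45a and Gadd45b. All 10 symbols were found among the 55536 annotated genes of the tables. The RNA came from CD4 T cells of the effector memory type, helper cells that have met antigen, carry the alpha-beta receptor and patrol tissues, of 1 male mouse aged 5 months. The strain was B6.SJL-Ptprca Pepcb/BoyJ, a C57BL/6 line that carries another allele of the CD45 gene. PolyA-selected RNA was sequenced in 3 libraries, which the labels number as technical replicates 1, 2 and 3 of 1 biosample. The labels name no treatment, and all libraries form 1 group, so no conditions were compared and each SD is the spread between libraries of that biosample. The sources used here do not give the sort gate. Values listed per library follow the order of libraries 1, 2 and 3.

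The p53 protein is held low in unstressed cells because Mdm2, a ubiquitin ligase, marks it for degradation and Mdm4, its relative, blocks its activity. After DNA breaks the kinase ATM phosphorylates p53 and Mdm2, p53 accumulates, and the phosphatase Wip1, encoded by Ppm1d, later removes these marks. Accumulated p53 binds response elements made of a pair of decamers and activates genes of cell cycle arrest such as Cdkn1a, genes of repair and stress responses such as Gadd45a and Sesn1, and its own inhibitors Mdm2, Ccng1 and Ppm1d. In T cells p53 and the p21 protein of Cdkn1a restrain proliferation, and Gadd45b, which is also induced through NF-kappaB, feeds into p38 signalling and interferon gamma production. Control of p53 acts largely on the protein, which was not measured here.

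Promoter sequences are shown first, because the estimates below place Cdkn1a and Sesn1 transcripts at more than 1 annotated start, and 2 windows hold a close match to the full p53 element. RefSeq windows of 300 bases, from 250 before to 50 after a start on build GRCm38.p6, matched the 10 genes in 13 cases, with a pair of windows each for Mdm4, Cdkn1a and Sesn1. The p53 decamer consensus, which reads the same on both strands, was found in 7 of the 13 windows and in 8.36% of 32851 windows over all genes. A pair of decamers with no spacer and at most 1 mismatch was found in 2 of the 13, the window of the upstream Cdkn1a start and that of Ccng1, and in 22 of all windows (0.0670%). The Cdkn1a pair lies 51 bases before the start at chr17:29090928-29090947, and the Ccng1 pair 195 bases before the start at chr11:40755462-40755481. The upstream Cdkn1a window also holds a single decamer, GGACTAGCTT, 73 bases before the start. The Sesn1 window shown holds a single decamer, and the window of the downstream Cdkn1a start holds none. A match is one of letters only, and binding was not measured. The 220 bases that end 30 bases short of the RefSeq start are printed, with the matches in capitals.
Cdkn1a, upstream start, plus strand, chr17:29090729-29090948: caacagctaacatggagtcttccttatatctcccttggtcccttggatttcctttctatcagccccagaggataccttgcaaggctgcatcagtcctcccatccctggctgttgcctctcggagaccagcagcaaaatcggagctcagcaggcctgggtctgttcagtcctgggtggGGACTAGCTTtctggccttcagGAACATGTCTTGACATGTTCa
Cdkn1a, downstream start, plus strand, chr17:29093519-29093738: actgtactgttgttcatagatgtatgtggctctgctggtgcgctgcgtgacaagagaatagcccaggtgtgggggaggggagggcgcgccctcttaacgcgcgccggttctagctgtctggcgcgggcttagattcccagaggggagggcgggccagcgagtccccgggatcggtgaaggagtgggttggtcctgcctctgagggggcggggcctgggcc
Ccng1, minus strand, chr11:40755317-40755536: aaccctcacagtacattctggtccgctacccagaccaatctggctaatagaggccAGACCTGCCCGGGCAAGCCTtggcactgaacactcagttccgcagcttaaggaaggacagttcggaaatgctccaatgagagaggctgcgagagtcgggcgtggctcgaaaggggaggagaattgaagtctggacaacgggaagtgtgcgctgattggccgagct
Sesn1, downstream start, plus strand, chr10:41887189-41887408: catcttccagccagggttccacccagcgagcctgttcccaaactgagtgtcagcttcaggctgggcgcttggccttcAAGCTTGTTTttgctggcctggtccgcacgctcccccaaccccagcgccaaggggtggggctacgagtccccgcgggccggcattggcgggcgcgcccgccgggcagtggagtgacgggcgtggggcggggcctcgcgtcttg

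Single decamers were also found before the starts of the p53 gene itself and of 3 other genes. Trp53 had GGACTTGCCC 75 bases before its start, and Mdm2 had GAACTTGCCT 186 bases before its start. Gadd45a had GGGCTAGCCC at 40 bases and Ppm1d GAGCTTGCTC at 132 bases. No decamer stood in the windows of Atm, Gadd45b, Mdm4 or the upstream Sesn1 start of RefSeq, which says only that these letters are not in those windows. That RefSeq start of Sesn1, at position 41810574, is not the GENCODE start of Sesn1-202, at 41809935, which lies outside the window.

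The libraries held between 15303615 and 17474991 expected counts, and library 1 stood apart from libraries 2 and 3. Across detected genes Spearman's correlation was 0.990 between libraries 2 and 3 and 0.926 and 0.925 between library 1 and these, and mitochondrial genes took 0.782% of counts in library 1 against 1.76% and 2.00%. The cells had the markers of their label, since all 6 T cell markers were detected, with summed TPM (transcripts per 1000000 transcripts) of 8893, 6334 and 6158. Trac made up most of each sum, at 6922, 3647 and 3493, while 4 of the 6, Cd3e, Cd4, Cd44 and Il7r, were over 1.5-fold lower in library 1. Of 14 markers of other cells only Epcam reached a TPM of 1 in every library (3.44 ± 0.594, SD, n = 3). The 14 summed to 8.29, 15.05 and 8.76, with S100a8 of neutrophils and Col1a1 of fibroblasts at 0 expected counts. In bulk RNA of this kind, fewer cells that express a gene and less RNA per cell cannot be told apart.

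All 10 genes were expressed. Each reached a TPM of at least 1 in every library, as did 44.9% of 22028 annotated protein-coding genes, and the median of their mean TPM was 61.6 against 28.9 for the detected coding genes. The order of mean TPM ran Gadd45b, Cdkn1a, Trp53, Mdm2, Mdm4, Ccng1, Ppm1d, Gadd45a, Sesn1 and Atm. Of the 9 pairs of neighbours in that order, 5 did not overlap between libraries: Mdm2 lay above Mdm4, Mdm4 above Ccng1, Ppm1d above Gadd45a, Gadd45a above Sesn1 and Sesn1 above Atm. The remaining neighbours were not separated beyond their spread. Without library 1, Trp53 stood above Cdkn1a and Ppm1d above Ccng1.

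**Figure D1:**
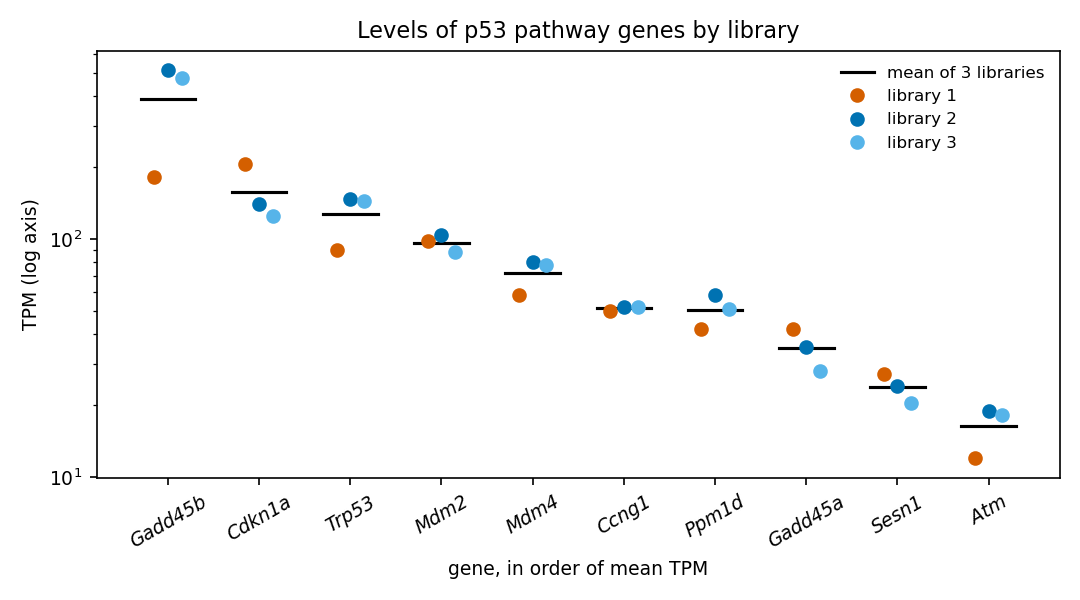
TPM (log axis) of the 10 genes in libraries 1, 2 and 3 (points) with the mean of the libraries (line), in order of the mean. Library 1 lies below both other libraries for 6 genes, among them Gadd45b (181.5 against 512.5 and 473) and Trp53 (89.9 against 147 and 144). It lies above both for 3, among them Cdkn1a (207 against 141 and 125). For Mdm2, Gadd45a and Sesn1 the point of library 2 lies nearer to library 1 than to library 3.

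Trp53, the p53 gene, on chromosome 11 (69580359 to 69591873 in GRCm38, plus strand), had a TPM of 89.9 in library 1, 147 in library 2 and 144 in library 3. Libraries 2 and 3 were alike and library 1 was lower than both. The mean was 127 ± 32.2 (SD, n = 3), above 86.0% of detected coding genes. On the log2(TPM + 1) scale library 1 lay 0.69 below the mean of the other libraries, a 1.61-fold difference. Its rounded expected counts differed between the libraries in the chi-square test (adjusted p = 1.8e-68). The test sets counts against counting error only, with Benjamini-Hochberg adjustment over all 13177 genes that had at least 30 counts, and it compares libraries, not conditions. The difference was still called when the statistic was divided by 19.9, the median overdispersion of these genes (adjusted p = 0.00246). The p53 relatives Trp63 and Trp73 were not detected, with 8 and 5 counts over all libraries. Trp53-ps, an annotated Trp53 pseudogene, had TPM values of 0.190, 0.940 and 1.20, far below the gene.

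The 2 inhibitors that act on p53 directly were both well expressed. Mdm2, on chromosome 10 (117688875 to 117710758, minus strand), had TPM values of 98.5, 104 and 88.1, with a mean of 96.7 ± 7.87 (SD, n = 3). Library 1 lay between the other libraries. Its counts still differed in the chi-square test (adjusted p = 3.85e-07), but not after scaling by the overdispersion (adjusted p = 0.958). Mdm4, on chromosome 1 (132959484 to 133030561, minus strand), had TPM values of 58.4, 79.8 and 77.6, with a mean of 71.9 ± 11.8 (SD, n = 3). Library 1 was the low one. Mdm2 exceeded Mdm4 in all 3 libraries, and the ratio of their mean TPM was 1.34. The Mdm4 difference was called with and without the scaling (adjusted p = 0.000703 and 2.42e-80), but not in the separate GENCODE M4 count table (adjusted p = 0.273). M4 counts of Mdm4 were 27.5%, 19.1% and 19.4% of its M21 counts, a larger part in library 1.

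Atm, which encodes the kinase that responds to DNA breaks, was the lowest of the 10 genes. It lies on chromosome 9 (53439149 to 53536740, minus strand) and had TPM values of 12.0, 19 and 18.1. The mean was 16.4 ± 3.83 (SD, n = 3), and library 1 lay below both others. The counts behind these values were 373, 916 and 999, so library 1 differed more in counts than in TPM: 1.44 below the others on the log2 scale of CPM + 1 (counts per 1000000) against 0.59 for TPM + 1. It was called by the chi-square test (adjusted p = 1.41e-77) and after scaling (adjusted p = 0.000944). Ppm1d, which encodes the phosphatase Wip1, on chromosome 11 (85311244 to 85347066, plus strand), had TPM values of 42.1, 58.1 and 50.7. Its mean was 50.3 ± 8.01 (SD, n = 3), and library 1 was lowest. The chi-square call of Ppm1d (adjusted p = 0.000612) ended after scaling by the overdispersion (adjusted p = 0.9999), with DESeq2 size factors (adjusted p = 0.0838), in the M4 table (adjusted p = 0.866) and without library 2 (adjusted p = 0.0526).

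Cdkn1a, which encodes the cyclin-dependent kinase inhibitor p21, was the most abundant of the classical arrest targets among the 10. On chromosome 17 (29090976 to 29100727, plus strand), it had TPM values of 207, 141 and 125, with a mean of 158 ± 43.2 (SD, n = 3). Library 1 was above both others, opposite to Trp53. It lay 0.63 above them on the log2(TPM + 1) scale, and the difference was called with the scaling (adjusted p = 1.71e-06) and without it (adjusted p = 5.68e-136). Gadd45a, a nuclear stress protein of growth arrest and repair, on chromosome 6 (67035096 to 67037457, minus strand), also stood highest in library 1, at 41.7 against 35.1 and 27.9. Its mean was 34.9 ± 6.91 (SD, n = 3). The chi-square call (adjusted p = 4.35e-07) ended after scaling (adjusted p = 0.962).

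Gadd45b, a relative of Gadd45a, had the highest mean of the 10 and the widest spread. On chromosome 10 (80930073 to 80932204, plus strand), it had TPM values of 181.5, 512.5 and 473. The mean was 389 ± 181 (SD, n = 3), above 96.3% of detected coding genes. Library 1 was far below libraries 2 and 3, which were 2.70-fold higher on the TPM + 1 scale. In library 1 Cdkn1a exceeded Gadd45b, and in the other libraries Gadd45b was the higher. The chi-square statistic was 1819, with an adjusted p that fell below the smallest number the computation holds, and after scaling it was still called (adjusted p = 5.64e-19). In the M4 count table the difference was smaller, at 0.49 below the others on the log2(CPM + 1) scale against 1.35 for the M21 counts. M4 counts of Gadd45b were 29.8%, 18.6% and 17.3% of its M21 counts. Over all genes the median of that percentage was 55.6, 55.7 and 55.0 at 100 to 1000 M21 counts per kilobase and 35.0, 35.0 and 34.2 at 1000 to 10000, a smaller part for more abundant genes.

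Ccng1, which encodes cyclin G1, a p53 feedback protein, varied least of the 10, with an SD of 2.12% of its mean. For Sesn1, which encodes sestrin 1, an inhibitor of mTORC1 signalling, the SD was 13.7% of the mean. Ccng1, on chromosome 11 (40748552 to 40755311, minus strand), had TPM values of 50.03, 52.0 and 51.8, with a mean of 51.3 ± 1.09 (SD, n = 3). It was the one member whose counts did not pass the chi-square test (adjusted p = 0.356), although it passed with DESeq2 size factors (adjusted p = 0.00142). Sesn1, on chromosome 10 (41809935 to 41908424, plus strand), had TPM values of 27.0, 24.2 and 20.5, with a mean of 23.9 ± 3.28 (SD, n = 3). Library 1 was highest, by 0.27 on the log2(TPM + 1) scale. Its chi-square call (adjusted p = 0.00327) ended after scaling (adjusted p = 0.9999) and without library 3 (adjusted p = 0.0623).

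In all, counts of 9 of the 10 genes differed between the libraries, where 75.8% of 13177 tested genes did. After scaling by the overdispersion 5 remained called, namely Gadd45b, Cdkn1a, Trp53, Mdm4 and Atm, against 21.6% of tested genes. Libraries 2 and 3 alone differed at 0 of the 10 genes by the same chi-square test, with 0 also at an unadjusted p below 0.05, against 16.7% of 12468 tested genes. The lowest adjusted p in that comparison was 0.182, for Ppm1d. By the M4 counts 7 of the 10 were called, against 68.4% of 10242 tested genes. The 9 calls all needed library 1, since none held without it. By size, library 1 was at least 1.5-fold above the others for 1 gene, Cdkn1a (16.5% of tested genes), and at least 1.5-fold below for 3 genes, Gadd45b, Trp53 and Atm (25.0%), on the TPM + 1 scale. Atm fell short of 1.5-fold without library 2 (-0.56 on the log2 scale), and Cdkn1a without library 3 (0.55). On the CPM + 1 scale 1 gene was above (16.7%) and 4 were below (25.6%), with Mdm4 added.

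**Figure D2:**
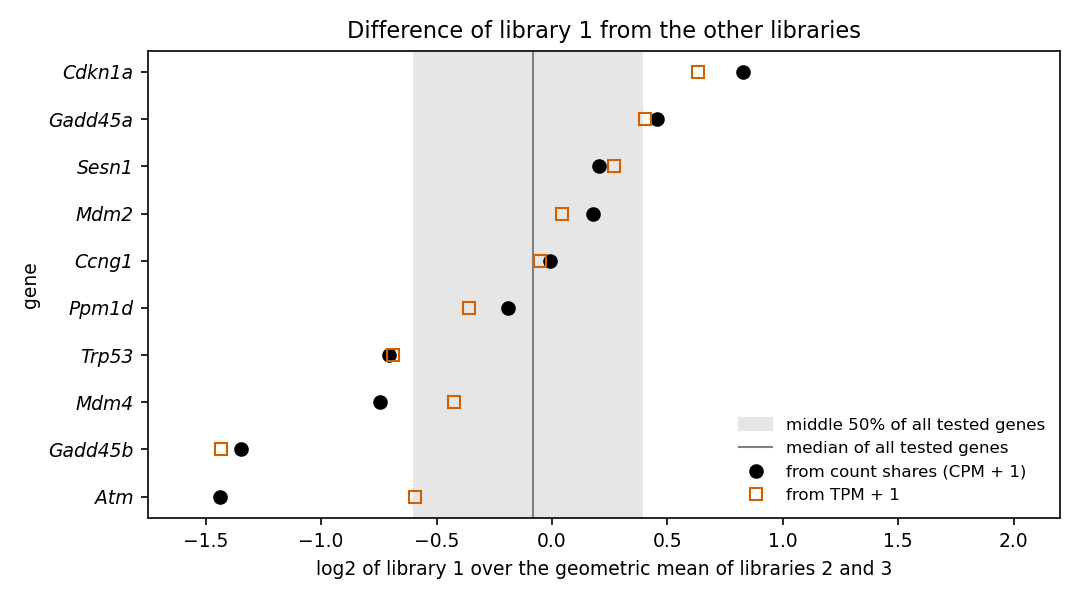
Log2 of library 1 over the geometric mean of libraries 2 and 3 for each gene, from count shares (CPM + 1, black points) and from TPM + 1 (open squares). The grey band holds the middle 50% of the 13177 tested genes on the CPM scale and the grey line their median (-0.08). Cdkn1a lies at 0.83 and 0.63, Gadd45b at -1.35 and -1.43, and the scales part most for Atm (-1.44 and -0.59).

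Transcript length moved with the count difference of library 1. Over 11407 detected genes the median log2 of library 1 over the others (CPM + 1) was 0.25 for genes whose main transcript had 1000 to 2000 bases, -0.14 at 3000 to 4000, -0.76 at 6000 to 8000 and -0.86 above 8000 bases (301 genes). Spearman's correlation across these genes, which share libraries and are not replicates, was -0.322. Mdm4, with 7105 bases, lay at -0.75, at the median of its length class, and Atm, with 9819 bases, lay at -1.44. Gadd45b and Trp53 lay low among short transcripts, with 1284 bases at -1.35 and 1772 bases at -0.71, and Cdkn1a, with 1913 bases, lay at 0.83. The part of length in these differences was not tested.

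**Figure D3:**
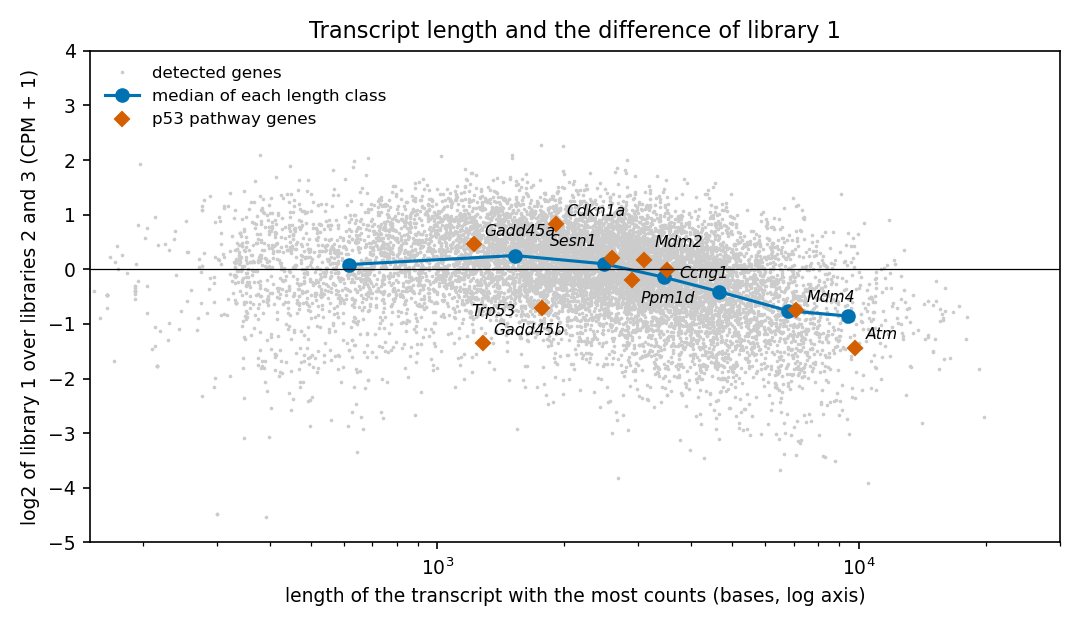
Length of the transcript with the most counts (bases, log axis) against log2 of library 1 over libraries 2 and 3 (CPM + 1) for 11407 detected genes (grey), medians of 7 length classes (blue) and the p53 pathway genes (orange). Medians fall from 0.25 at 1000 to 2000 bases to -0.86 above 8000 bases. Mdm4 sits on the median line, Gadd45b and Trp53 below it and Cdkn1a above it.

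The transcript tables divide each gene's TPM among its annotated transcripts, 57 for the 10 genes, as estimates from short reads. A single transcript held over 50% of the mean TPM in 8 genes, Mdm4 and Atm being the exceptions, as in 67.1% of 9172 detected coding genes with several transcripts. Trp53 is among the 8 through Trp53-201, at 20.3%, 75.7% and 66.3%, a share that is not reliable, as described below. Ccng1-201 took 100% of Ccng1 in every library, Gadd45b-201 88.8% ± 3.16 of Gadd45b, and Gadd45a-201 72.9% ± 5.07 of Gadd45a (SD, n = 3). Ppm1d-201, which encodes the complete protein, took 64.3% ± 5.23, and Ppm1d-202, whose annotated coding sequence is incomplete, 35.7% ± 5.23 (SD, n = 3). By expected counts Ppm1d-201 took 87.6% ± 2.39 (SD, n = 3), since Ppm1d-202 is the shorter transcript.

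Cdkn1a transcripts were estimated at several annotated starts. Its 4 complete coding transcripts share 1 coding sequence of 159 codons, so the starts differ in leader and not in protein. Transcripts of the downstream start (Cdkn1a-201 and Cdkn1a-205) took 73.6%, 52.1% and 60.1% of the gene's TPM. Cdkn1a-202, whose start lies 2790 bases upstream and carries the decamer pair shown above, took 22.8%, 38.8% and 30.7%. In TPM the downstream transcripts stood at 152, 73.3 and 75.3, and Cdkn1a-202 at 47.2, 54.6 and 38.5. Library 1 was thus high for the downstream transcripts and between the other libraries for the upstream one. Cdkn1a-203, which starts between these and the end of the gene, took 3.53%, 9.16% and 9.15%. Cdkn1a-201 and Cdkn1a-202 also differ in their annotated 3′ ends, so the shares do not measure the starts alone.

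Sesn1 transcripts were likewise estimated at 2 starts, 77504 bases apart, which give proteins of different length. Sesn1-201, from the downstream start with the single decamer, encodes 492 codons and took 82.8%, 67.7% and 59.8%. Sesn1-202, from an upstream start outside the RefSeq windows of Sesn1, encodes 551 codons and took 17.2%, 32.3% and 40.2%. Sesn1-201 was the larger in every library. Its TPM was 22.4, 16.4 and 12.2, and that of Sesn1-202 was 4.65, 7.82 and 8.23, so library 1 was highest for the one and lowest for the other.

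**Figure D4:**
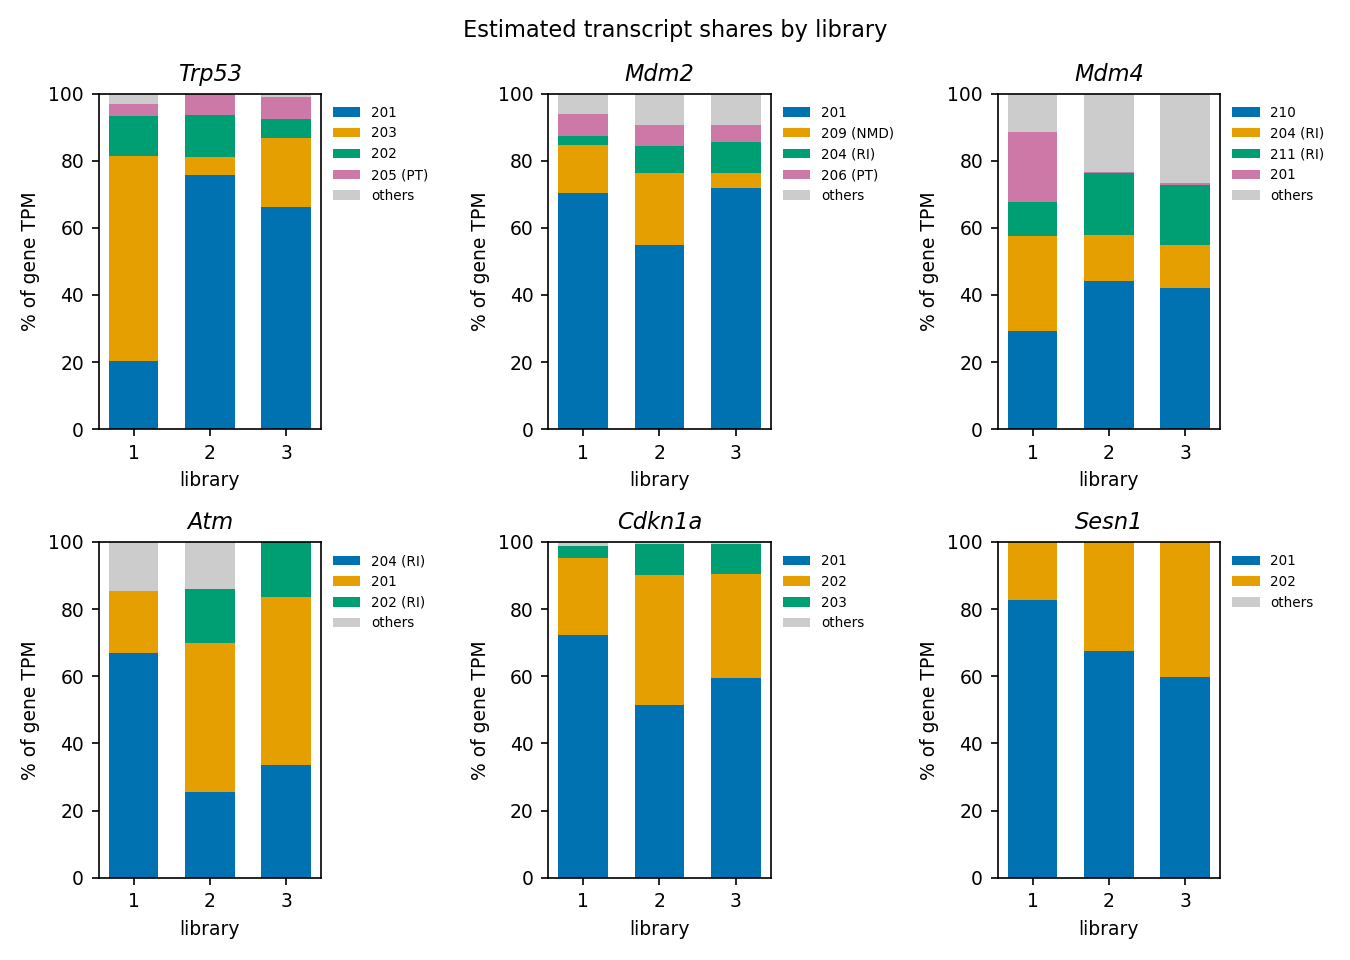
Estimated share (%) of each gene's TPM held by its annotated transcripts in libraries 1, 2 and 3, for 6 genes. Colours mark transcripts with a mean share of at least 5%, grey the others, with RI for retained intron, NMD for a nonsense-mediated decay transcript and PT for a processed transcript. Cdkn1a-202 takes 22.8% to 38.8%, Sesn1-202 17.2% to 40.2% and Atm-204 25.6% to 66.8%.

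Trp53 was carried mostly by transcripts with the regular C-terminal exon. Trp53-201 and Trp53-203 differ in their annotated transcript ends by 1 base, and the deposited posterior SD of the Trp53-201 count was 361, 356 and 473, so their separate shares (54.1% ± 29.6 and 28.9% ± 28.8, SD, n = 3) are not reliable. Together they took 81.3%, 81.0% and 86.9% of Trp53 TPM. Trp53-202 and Trp53-206, in which the last exon starts 96 bases earlier and replaces the regular C-terminus, took 11.9%, 12.6% and 5.44%, or 203, 291 and 144 counts. The coding ends of Trp53-201 (387 codons) and Trp53-202 (378 codons) are printed from the GENCODE M21 transcripts, plus strand, because the choice between them sets the C-terminus. Each line opens with the last 30 bases of the shared exon in lower case, at chr11:69590733-69590762, and ends with the coding bases of the last exon in capitals, stop codon included.
Trp53-201, last exon from position 69591350 on chromosome 11: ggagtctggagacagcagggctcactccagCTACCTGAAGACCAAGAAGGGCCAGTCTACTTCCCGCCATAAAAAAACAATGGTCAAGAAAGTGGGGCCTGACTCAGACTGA
Trp53-202, last exon from position 69591254 on chromosome 11: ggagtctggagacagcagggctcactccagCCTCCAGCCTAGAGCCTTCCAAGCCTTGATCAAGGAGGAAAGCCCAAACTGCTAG

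Mdm2 and its relative differed in how much of their TPM fell on coding transcripts, while their shares by counts overlapped. Complete coding transcripts took 73.6%, 55.9% and 76.2% of Mdm2 TPM and 50.2%, 44.3% and 42.5% of Mdm4 TPM. By expected counts they took 82.4%, 68.3% and 88.7% of Mdm2 and 87.6%, 85.01% and 83.2% of Mdm4. The count share was higher for Mdm4 in libraries 1 and 2 and for Mdm2 in library 3. Mdm2-201, with 489 codons, took 70.4%, 54.8% and 71.9% of Mdm2. Mdm2-209, annotated for nonsense-mediated decay and starting 736 bases downstream, took 14.1%, 21.6% and 4.37%, and library 2 was highest. Its counts of 407, 540 and 109 had posterior SDs of 148, 126 and 114. Mdm4-210, also with 489 codons, led Mdm4 at 29.4%, 44.2% and 42.0% of TPM. Retained-intron transcripts together took 43.6%, 44.9% and 45.2% of Mdm4 TPM, with Mdm4-204 at 18.2% ± 8.71 and Mdm4-211 at 15.5% ± 4.83 (SD, n = 3). By expected counts Mdm4-210 took 80.6% ± 5.97 (SD, n = 3), because it is much the longest of these transcripts.

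Full-length coding transcripts held most Atm counts in every library, but their part of the TPM differed. Atm-201 and Atm-206, which encode 3063 and 3066 codons, together had TPM values of 2.49, 9.83 and 9.06, or 20.8%, 51.7% and 49.9% of Atm TPM. Library 1 was low, and the other libraries were 3.79-fold higher. Atm-204, a retained-intron transcript of 1243 bases at the 5′ part of the gene, had TPM values of 8, 4.85 and 6.11 and shares of 66.8%, 25.6% and 33.7%. It led in library 1, and Atm-201, at 37.6% ± 16.7 (SD, n = 3), led in libraries 2 and 3. Atm-202, another retained-intron transcript, of 281 bases, took 10.8% ± 9.35 (SD, n = 3) from at most 7.13 counts. By counts the coding pair took 70.1%, 93.0% and 91.7% of Atm.

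Genes that overlap the members in the annotation were low. The gene 9930024M15Rik within Sesn1 on the same strand had TPM values of 1.10, 1.82 and 2.40. On opposite strands, E230016M11Rik over Gadd45a had 1.59, 1.32 and 2.04, Gm29257 over Mdm4 0.940, 0.710 and 0.970, and AC167363.2 over Cdkn1a 0.210, 0.880 and 0.760. Wrap53 starts 104 bases from Trp53 on the opposite strand, without overlap, and had TPM values of 7.26, 9.97 and 8.81. The sources used here do not give the strand setting of the counting.

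Around these genes, 63 of 75 further genes of the pathway, in 7 lists by role, were detected, where 44.9% of annotated protein-coding genes were. Of the 68 with enough counts, 56 differed between the libraries (background 75.8%), 26 did so after scaling (21.6%) and 17 differed between libraries 2 and 3 (16.7%). Library 1 was at least 1.5-fold higher for 17 and lower for 19 of the 75 on the TPM + 1 scale (16.5% and 25.0% of tested genes). The 19 include Ppp1r13l, which had too few counts to be tested. The lists were chosen with earlier results of these data known, and their counts are descriptions.

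Of 19 damage sensors and kinases, 17 were detected, and their list had a median of 17.8 in mean TPM. Kat5, the acetyltransferase Tip60 that activates ATM, had TPM values of 181, 74.1 and 53.3 and a mean of 103 ± 68.3 (SD, n = 3). H2afx, the histone marked at breaks, stood at 50.6 ± 10.9, and Trp53bp1, which binds marked chromatin at breaks, at 47.9 ± 14.4 (SD, n = 3). Chek2, a checkpoint kinase, was not detected, with TPM values of 2.13, 0.860 and 2.00, nor was Brca1, a repair gene, with 0.880, 2.74 and 1.87. Library 1 was higher by 1.5-fold for 2 genes of this list and lower for 7 (16.5% and 25.0% of tested genes).

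Of 19 regulators of p53, 17 were detected (list median 27.3). Library 1 was higher by 1.5-fold for 4 and lower for 8 (16.5% and 25.0% of tested genes). The 8 include Ppp1r13l, which had too few counts to be tested. Rchy1, the ubiquitin ligase Pirh2, had TPM values of 187, 91.9 and 82.2, and Usp7, which removes ubiquitin from Mdm2 and p53, had 52.6, 135 and 113. Library 1 was high for Rchy1 and low for Usp7. The ribosomal protein gene Rpl11, whose product binds Mdm2, stood at 166 ± 72.7 (SD, n = 3), and is uncertain because ribosomal protein genes have many pseudogene copies. Cdkn2a, which encodes Arf, an Mdm2 inhibitor, was not detected (9 counts in all), nor was Ppp1r13l (20 counts), whose product iASPP restrains p53.

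Other targets of p53 were present in each functional class. Paralogs of the members were listed apart from the targets and are given first. All 4 paralogs of the members were detected: Ccng2 at 121 ± 52.9, Sesn3 at 31.5 ± 2.62, Gadd45g at 12.9 ± 8.65 and Sesn2 at 8.30 ± 0.596 (SD, n = 3). Of 8 arrest targets 6 were detected, led by the antiproliferative gene Btg2 at 612.5 ± 183, the kinase gene Plk3 at 317 ± 145 and Trp53inp1 at 95.1 ± 32.0 (SD, n = 3). Gtse1 and Phlda3 were not detected, with 64 and 17 counts. Btg2 and Plk3 were higher in library 1, at 821 against 538 and 479 and at 483 against 251 and 216. Trp53inp1 was lower there, at 58.5 against 118 and 109. On the TPM + 1 scale, 3 of the 8 arrest targets were at least 1.5-fold higher in library 1 and 1 lower (16.5% and 25.0% of tested genes).

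Of 12 death targets 11 were detected, and the list median was 28.6. Bax, a pore-forming effector of apoptosis, had TPM values of 322.5, 155 and 159, and Pmaip1, which encodes the BH3-only protein Noxa, had 288, 146 and 123. Library 1 was above both others for Bax and for Pmaip1. By 1.5-fold, 4 of the 12 death targets were higher in library 1 and 1 lower (16.5% and 25.0% of tested genes). Fas, the death receptor gene, stood at 61.2 ± 2.46 (SD, n = 3) with little spread. Eda2r had 0 counts, and the limit of 3 counts corresponds to a TPM of 0.126, 0.153 and 0.131, for counting error only. Of 11 repair and metabolic targets 8 were detected, led by the damage recognition gene Ddb2 at 69.9 ± 14.5, the ribonucleotide reductase gene Rrm2b at 28.2 ± 9.53 and the nuclease gene Ercc5 at 20.6 ± 1.64 (SD, n = 3). Polh, Dram1 and Gdf15 were not detected, with 231, 90 and 1 counts, and the Polh TPM was 0.640 in library 1 against 3.70 and 3.29.

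**Figure D5:**
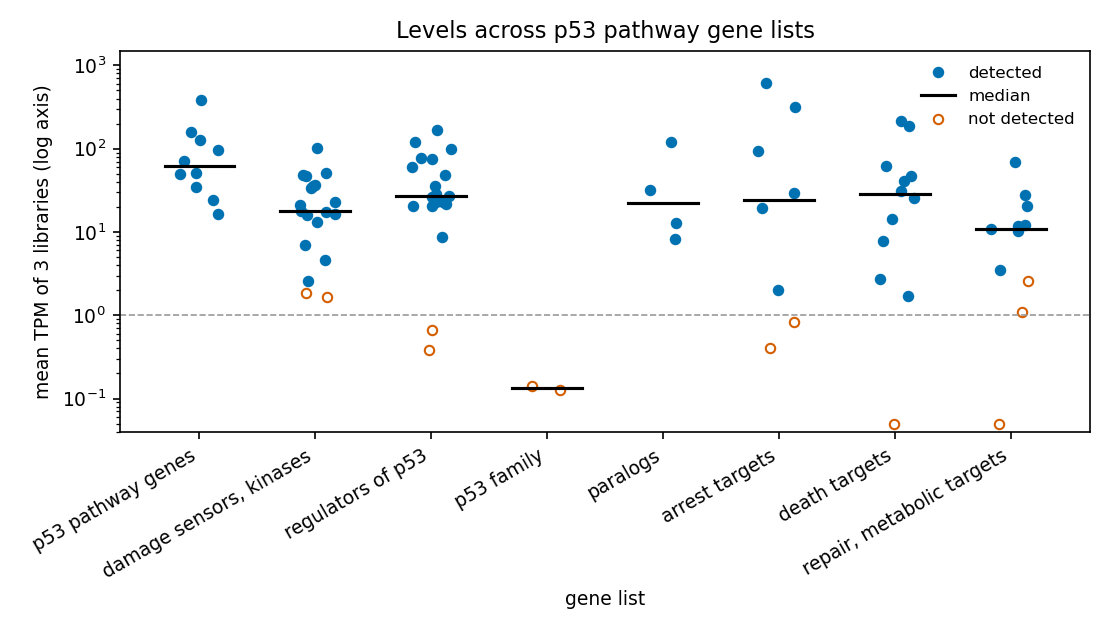
Mean TPM over the libraries (log axis) of each gene in the p53 pathway genes and 7 further lists, with the median of each list (line). Filled points were detected (TPM of at least 1 in every library), open points were not, and values under 0.05 are drawn at 0.05. Medians run from 10.9 for repair and metabolic targets to 61.6 for the p53 pathway genes, apart from the 2 undetected p53 relatives.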

How the data were processed

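PolyA RNA of 1 biosample was analysed in 3 libraries on mm10 with GENCODE M21, per the file headers. The authors deposited expected counts (estimates that need not be whole), TPM and FPKM values scaled within each library, transcript percent values (shares of a gene's TPM) and posterior SDs, listed here as a score. The authors also deposited whole-number counts per gene on GENCODE M4. No aligner, quantifier or strand setting is given in the sources used here.

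Expected counts of genes with an Ensembl ID were rounded. Genes with at least 30 counts were tested with Pearson's chi-square test over the libraries against library totals (scipy 1.17.1), and called at an adjusted p (Benjamini-Hochberg) below 0.05. The script was tested on simulated data. Such p-values cover counting error only, as the tables hold reads and not identified molecules. With 1 group, no edgeR or DESeq2 test was run, and edgeR 4.0.16 (TMM) and DESeq2 1.42.0 gave scaling factors only. Log2 differences used a pseudocount of 1. Detection meant reaching a TPM of 1 in all 3 libraries, and a count of 0 was read as up to 3 counts.

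The members, lists and alternatives were chosen with earlier results of these data known. Named were every member, the 3 highest detected and all undetected genes of each list, detected markers of other cells, overlapping genes, and the leading transcript of each member with any other at a mean share of at least 10%. Further genes and transcripts were named after their values were seen: Wrap53, Sesn2, Trp53-ps, Cdkn1a-203, Cdkn1a-205, Trp53-202, Trp53-206, Atm-206, S100a8, Col1a1 and the T cell markers.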

Additional observations from a re-analysis of the deposited data

How the results depend on the processing

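The 10 genes were detected under every threshold and with each library left out. The count of members that differed between libraries was 9 with TMM or DESeq2 scaling and with other count minimums, 7 in the M4 table, 5 after scaling by overdispersion, and 0 to 8 with 1 library left out (0 without library 1). The order of mean TPM kept 10 of 10 places with FPKM, and 6 to 10 with 1 library left out, with 6 without library 1. Of the 4 members that library 1 set apart by 1.5-fold, 1 remained in the M4 table, Atm. M4 counts were a smaller part of M21 counts for more abundant genes, as given above for Gadd45b. The median part was 4.74%, 4.08% and 3.60% from 10000 M21 counts per kilobase upward. For Gadd45b, Cdkn1a and Trp53 that part was smaller in the libraries with more M21 counts. The M4 table therefore cannot settle the size of their difference. Trp53 fell short of that size with DESeq2 scaling (-0.55), Atm without library 2 (-0.56) and Cdkn1a without library 3 (0.55), while Mdm4 passed it with TMM (-0.69) and DESeq2 scaling (-0.59) and Gadd45a with DESeq2 scaling (0.61). Directions turned for 2 genes near 0 only: Ccng1 at 0.051 with TMM scaling, 0.15 with DESeq2 scaling and 0.094 in the M4 table, and Mdm2 at -0.072 without library 3 and 0.16 without library 2 (log2 of library 1 over the others). A leading transcript over 50% was found for 7 to 8 members with 1 library left out, 10 by expected counts and 7 by posterior means, an alternative chosen after seeing the data. Over all alternatives the adjusted p (chi-square test) of Mdm4 ran from 2.02e-80 to 0.987, of Ppm1d from 0.000125 to 0.9999, of Sesn1 from 5.45e-08 to 0.9999 and of Ccng1 from 0.00142 to 0.9999. The cause was not tested for any of these. No paired analysis was possible because the libraries form 1 group. Depth limits transcripts with few counts, such as Atm-202 with at most 7.13.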
